A study of Bos taurus with 10 samples.

Results

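Members of the fibroblast growth factor (FGF), bone morphogenetic protein (BMP) and activin pathways were followed through 10 libraries of poly(A) RNA from bovine embryos. The 10 genes are the ligand genes FGF4 and BMP4, the receptor genes FGFR1, FGFR2, FGFR4, BMPR1A and ACVR1B, the activin subunit genes INHBA and INHBB, and the BMP target gene ID2. They were taken by symbol, and all 10 were found among 28700 genes. At the zygote stage the embryos received, by injection, siRNA (small interfering RNA) to H1FOO, which encodes an oocyte linker histone (knockdown, KD), or negative control siRNA (NC). Embryos of both treatments were collected as 8/16-cell embryos at 4 days after insemination (2 NC and 2 KD libraries) and as morulae at 5.5 days (3 NC and 3 KD libraries). All embryos had therefore been injected, and no uninjected group is among the samples analysed here. The labels give neither the number of embryos behind a library nor whether replicates were separate collections, so a p-value here refers to the spread between libraries alone. Knockdown was by injected RNA and not by a deletion, and the H1FOO transcript was measured rather than the protein. Each library holds RNA of whole embryos, so fewer cells of a type and less RNA per cell cannot be told apart.

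As background, FGFs bind receptor tyrosine kinases that signal through RAS and the MAP kinases. In the mammalian blastocyst, FGF4 is made by the epiblast precursors and promotes the primitive endoderm. BMPs and activins are dimers of the TGF-beta family that bind paired type I and type II receptor kinases. BMPs act through SMAD1, SMAD5 and SMAD9, and activin and nodal act through SMAD2 and SMAD3. Transcripts of the ID genes, which encode inhibitors of basic helix-loop-helix factors, are widely read as a target of BMP signalling.

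Values are FPKM, that is, fragment numbers divided by transcript length and by library size, so levels can be set beside each other between genes. Differences are on the scale log2(FPKM + 1), which understates the change of genes near or under 1 FPKM. They come from limma, and a gene passed at a Benjamini-Hochberg adjusted p under 0.05 over the 11761 genes that averaged 1 FPKM or more. Summed FPKM ran from 345464 to 669836 per library, and 11103 to 11872 genes reached 1 FPKM. No read counts were used, so the depth behind each value is unknown. The injected target H1FOO stood at 50.8 and 10.8 FPKM in the NC and at 0.649 and 0.0736 FPKM in the KD 8/16-cell libraries (log2 difference -4.22, SE 0.60, limma adjusted p 0.104). The same comparison gave an adjusted p of 0.0107 with the replicate number as a block and 0.00353 without NC 8/16-cell replicate 2, where the 1 NC library left takes its spread from the remaining groups, and ran from 0.00353 to 0.662 over the alternatives. In morulae H1FOO was at 0.294, 1.05 and 2.17 FPKM in NC, against 0.0610, 0.191 and 0.251 FPKM in KD libraries (-0.80, SE 0.49, limma adjusted p 0.374). Every KD library was thus below every NC library of its stage.

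The 10 genes spanned a wide range of levels, and their order differed between the stages. In NC 8/16-cell embryos ID2 had the highest mean (72.0 FPKM, SD 16.3, n = 2), followed by BMP4, FGFR4, ACVR1B, INHBB, FGFR1, BMPR1A, INHBA and FGFR2, with FGF4 listed at 0. Within that order only the neighbours BMPR1A and INHBA had overlapping libraries. In NC morulae FGFR4 came first, with a mean of 76.1 FPKM (SD 13.7, n = 3), well above ID2 and BMP4, which did not differ beyond their spread. ACVR1B and FGF4 came next and also overlapped, then BMPR1A and FGFR2, and last INHBB, INHBA and FGFR1. Of these INHBA overlapped both neighbours, while INHBB lay above FGFR1. In KD morulae ID2, FGFR4 and BMP4 overlapped at the top, ACVR1B stood apart below them, and each neighbouring pair among INHBB, FGF4, INHBA, BMPR1A, FGFR1 and FGFR2 overlapped. In KD 8/16-cell embryos the order again opened with ID2, BMP4 and FGFR4, each apart from the next.

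**Figure D1:**
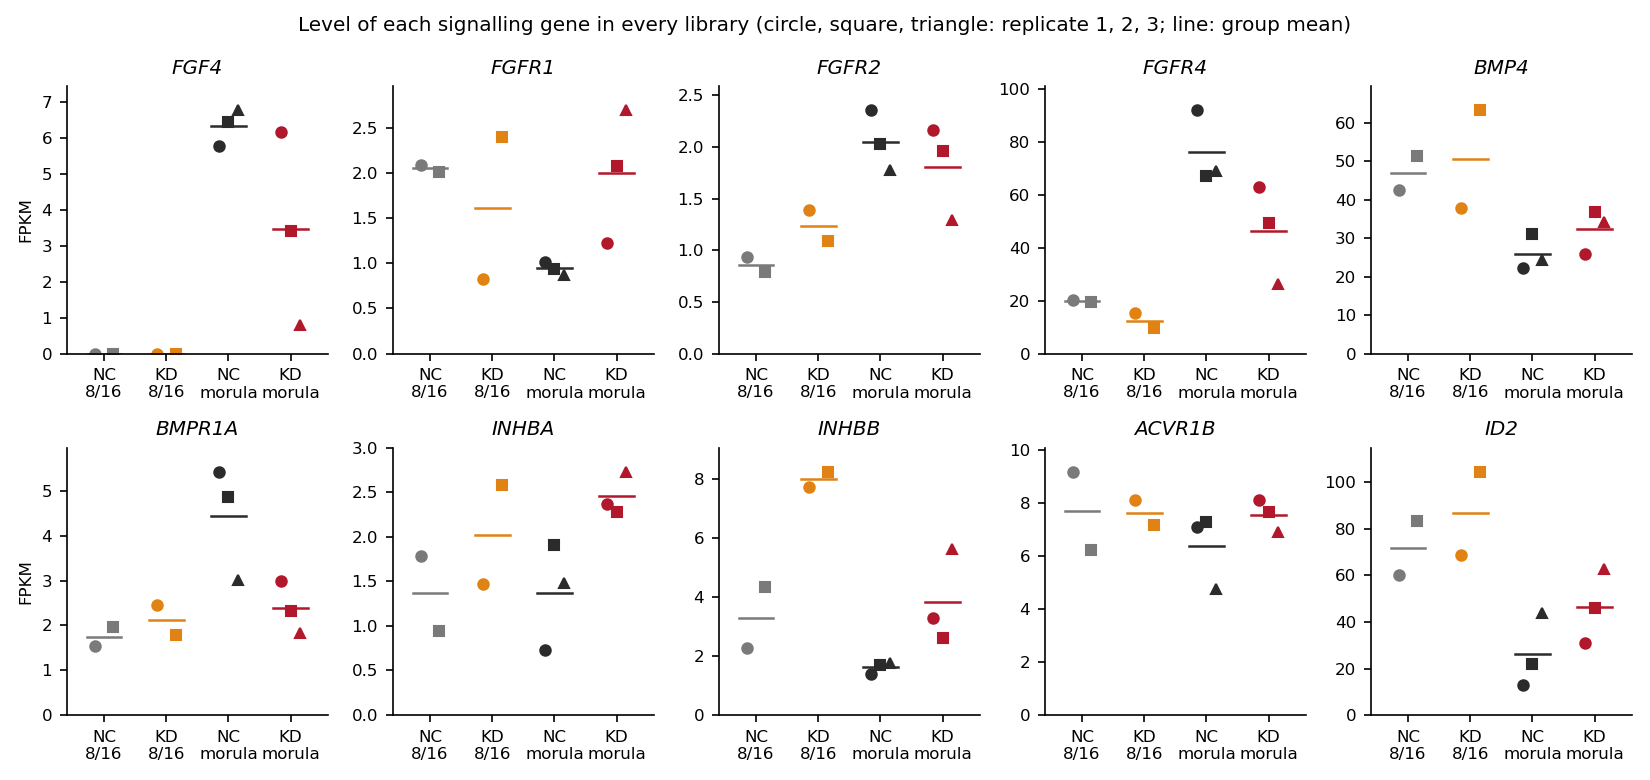
Level of each of the 10 genes in FPKM in each library, by stage and treatment. Points are libraries and horizontal bars are group means. FGF4 is at 0 in all 4 libraries of 8/16-cell embryos, and FGFR4 is the gene with the highest mean in NC morulae, at 76.1 FPKM.

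FGF4, the ligand, was listed at 0 FPKM in both NC and both KD 8/16-cell libraries. The 13 protein genes of the mitochondrial genome are also listed at 0 in every library of this table, so a listed 0 was not read as absence. In NC morulae FGF4 stood at 5.79, 6.45 and 6.77 FPKM. In KD morulae it stood at 6.17, 3.41 and 0.782 FPKM. The NC values lay close together, while the KD values ranged from within the NC range to far below it, so the groups overlapped. The knockdown difference did not pass (log2 difference -0.93, SE 0.40, limma adjusted p 0.218), and without KD morula replicate 3 it shrank to -0.38. The listed FGF4 level rose between the stages in NC embryos (2.87, SE 0.45, limma adjusted p 0.00171). It also rose in KD embryos (1.94, SE 0.45, limma adjusted p 0.0162), where the call was lost without KD 8/16-cell replicate 1 (adjusted p 0.0825) or replicate 2 (0.0889). Because the earlier stage is listed at 0, the size of these differences follows the pseudocount (6.01 in NC and 4.75 in KD with a pseudocount of 0.1), and no fold is given. FGF4 reached the filter on low values through its morula libraries alone. The listed 0 values also add no spread to any SE of FGF4 given here. Its stage tests therefore cannot decide whether the transcript changed, and no conclusion is drawn from them. Of the 9 other FGF ligand genes listed, FGF16 alone reached the filter on low values.

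FGFR4, a receptor tyrosine kinase for FGFs, was the most abundant FGF receptor transcript at both stages. It was at 20.4 and 19.4 FPKM in NC, against 15.2 and 9.49 FPKM in KD 8/16-cell libraries. In morulae it was at 91.9, 67.3 and 69.1 FPKM in NC, against 63.0, 49.4 and 26.3 FPKM in KD libraries. At each stage every KD library was below every NC library. The knockdown difference was -0.68 at 8/16 cells (SE 0.36, limma adjusted p 1) and -0.78 in morulae (SE 0.29, limma adjusted p 0.169), and the difference between them was -0.10 (SE 0.46, interaction adjusted p 0.960). Blocking on the replicate number, the morula difference passed (limma adjusted p 0.0409), and with a block at the morula stage only it did not (0.0518). FGFR4 rose to the morula in NC embryos by 1.87 (SE 0.33, limma adjusted p 0.00273), a 3.82-fold ratio of the means, and in KD embryos by 1.77 (SE 0.33, limma adjusted p 0.00651), a 3.75-fold ratio. The KD rise lost its call without KD 8/16-cell replicate 2 (1.46, adjusted p 0.0682).

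FGFR1 and FGFR2, the receptors for many FGFs, were low. FGFR1 was at 2.10 and 2.02 FPKM in NC, against 0.822 and 2.40 FPKM in KD 8/16-cell libraries. In morulae FGFR1 was at 1.02, 0.944 and 0.869 FPKM in NC, against 1.23, 2.08 and 2.70 FPKM in KD libraries. All KD morula libraries were above all NC ones, but the difference did not pass (0.60, SE 0.27, limma adjusted p 0.241). FGFR1 did not pass between stages either, at -0.65 in NC (limma adjusted p 0.126) and 0.24 in KD embryos (0.610). FGFR2 was at 0.933 and 0.787 FPKM in NC, against 1.39 and 1.09 FPKM in KD 8/16-cell libraries, with no overlap. In morulae FGFR2 was at 2.35, 2.03 and 1.77 FPKM in NC, against 2.16, 1.96 and 1.30 FPKM in KD libraries, which overlapped. Its knockdown difference was 0.26 at 8/16 cells (SE 0.26, limma adjusted p 1) and -0.13 in morulae (SE 0.21, limma adjusted p 0.759). FGFR2 rose between the NC stages (0.71, SE 0.23, limma adjusted p 0.0409). That call was lost without NC 8/16-cell replicate 1 (adjusted p 0.119) or 2 (0.169), NC morula replicate 1 (0.0854) or 2 (0.0541), or KD morula replicate 2 (0.0561). No filter (0.0601), rescaling to an equal sum (0.0605) and RN18S1 as a covariate (0.0696) also ended it. In KD embryos FGFR2 differed by 0.32 (limma adjusted p 0.355).

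Set against the sum of FGFR1, FGFR2, FGFR3 and FGFR4, FGFR4 held 65.5% and 63.3% in NC, against 71.1% and 54.5% in KD 8/16-cell libraries. In morulae it held 75.0%, 76.6% and 76.8% in NC, against 76.4%, 77.5% and 70.2% in KD libraries. Unlike the FGFR4 level, the FGFR4 share overlapped between the treatments (difference -1.43 percentage points, exact two-sided permutation p 0.8, n = 3 per group). FGFR1 held 0.831%, 1.07% and 0.966% in NC, against 1.49%, 3.27% and 7.19% in KD morulae, with no overlap. FGFR2 also held more in KD morulae, with a mean of 3.05% (SD 0.413) against 2.07% (SD 0.213), and FGFR3 held less, 18.3% (SD 1.87) against 20.9% (SD 1.24). For each of these 3 shares the exact two-sided permutation p was 0.1, the smallest that 3 libraries against 3 allow. These 4 shares of 1 sum cannot move independently, and none reaches 0.05 even before adjustment over the 5 shares computed.

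**Figure D2:**
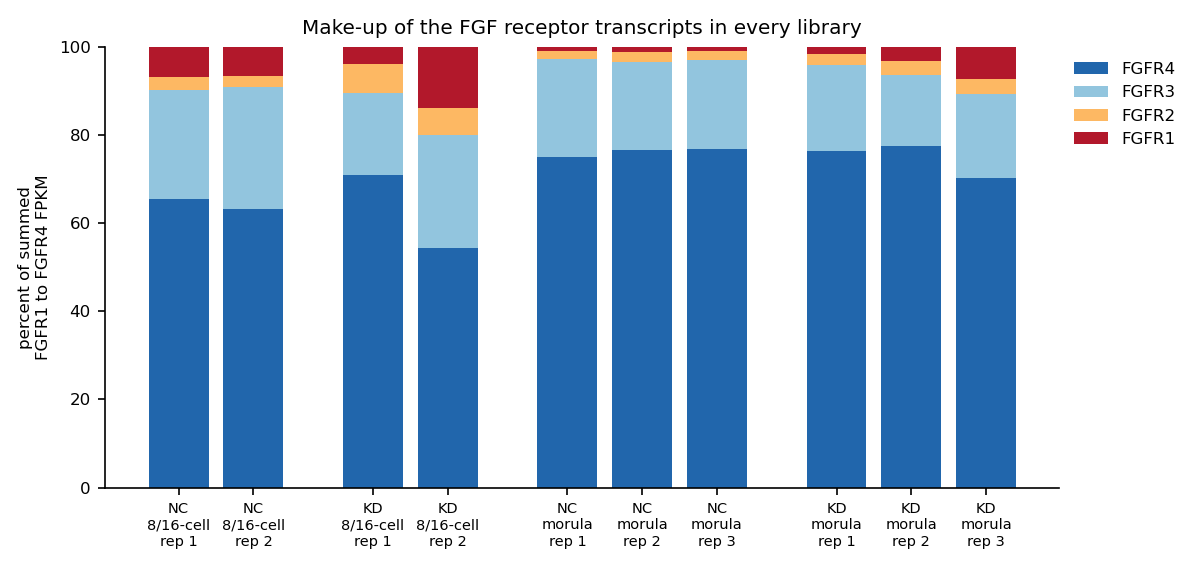
Share in percent of each FGF receptor transcript in the summed FPKM of FGFR1, FGFR2, FGFR3 and FGFR4, in each library by stage and treatment. FGFR4 makes up 54.5% to 77.5% of the sum in every library, and the FGFR1 share of KD morulae (1.49% to 7.19%) lies above that of NC morulae (0.831% to 1.07%).

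BMP4, the BMP ligand of the set, was one of its most abundant transcripts. It was at 42.4 and 51.5 FPKM in NC, against 37.8 and 63.2 FPKM in KD 8/16-cell libraries. In morulae BMP4 was at 22.3, 31.2 and 24.2 FPKM in NC, against 25.8, 36.9 and 34.1 FPKM in KD libraries. The treatments overlapped at both stages, and neither difference passed (0.07, SE 0.28, and 0.31, SE 0.22, limma adjusted p 1 and 0.456). BMP4 fell between the NC stages (-0.84, SE 0.25, limma adjusted p 0.0283). The fall lost its call without NC 8/16-cell replicate 1 (adjusted p 0.0829) or 2 (0.177), or without NC morula replicate 1 (0.0858) or 3 (0.0676). No filter (0.0538), quantile normalization (0.0541) and rescaling (0.0696) ended it too. In KD embryos the morula libraries were also all below the 8/16-cell ones, and that difference passed only with the replicate block (-0.60, SE 0.25, limma adjusted p 0.112, blocked 0.0239).

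BMPR1A, a type I receptor for BMPs, was at 1.53 and 1.97 FPKM in NC, against 2.46 and 1.79 FPKM in KD 8/16-cell libraries. In morulae it was at 5.43, 4.87 and 3.01 FPKM in NC, against 2.998, 2.33 and 1.83 FPKM in KD libraries. The highest KD value lay just under the lowest NC value, so the groups did not overlap. The morula knockdown difference of -0.67 did not pass (SE 0.24, limma adjusted p 0.150, blocked 0.0632). BMPR1A rose between the NC stages (0.96, SE 0.27, limma adjusted p 0.0211), a 2.54-fold ratio of the means, but not to a called extent between the KD stages (0.11, SE 0.27, limma adjusted p 0.800). The NC call was lost without NC 8/16-cell replicate 1 (adjusted p 0.136) or 2 (0.0695) or without NC morula replicate 1 (0.0653). The test of the difference between the treatments' stage changes gave -0.85 (SE 0.38, interaction adjusted p 0.526), so a different course of BMPR1A in KD embryos was not shown.

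ID2, the target gene, was at 60.4 and 83.5 FPKM in NC, against 68.7 and 105 FPKM in KD 8/16-cell libraries. In morulae ID2 was at 12.8, 21.9 and 43.9 FPKM in NC, against 30.8, 46.1 and 62.8 FPKM in KD libraries. Within each treatment the 3 morula libraries spread widely, and libraries with the same number took the same place in both treatments. The treatments overlapped and the difference of 0.92 did not pass without the block (SE 0.40, limma adjusted p 0.218), whereas blocking on the replicate number gave an adjusted p of 0.0110, and 0.0282 with a block at the morula stage only. RN18S1, the 18S ribosomal RNA that poly(A) selection should remove, was at 2704, 2983 and 8611 FPKM in NC, against 9053, 8553 and 11581 FPKM in KD morulae. The KD values lay far above NC morula replicates 1 and 2 and close to replicate 3. With the level of RN18S1 as a covariate the ID2 difference was 0.10, with a limma adjusted p of 0.938. ID2 fell between the NC stages (-1.57, SE 0.44, limma adjusted p 0.0221), a call lost without NC 8/16-cell replicate 1 (adjusted p 0.0749) or 2 (0.150) or NC morula replicate 1 (0.0686) or 2 (0.0531), and with no filter (0.0563). In KD embryos its stage difference was -0.91 (SE 0.44, limma adjusted p 0.167, blocked 0.00702).

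INHBA and INHBB encode the beta A and beta B subunits, whose dimers are the activins and which form inhibins with the alpha subunit INHA. INHBB was at 2.26 and 4.35 FPKM in NC, against 7.74 and 8.25 FPKM in KD 8/16-cell libraries. In morulae INHBB was at 1.39, 1.70 and 1.76 FPKM in NC, against 3.31, 2.60 and 5.62 FPKM in KD libraries. At both stages every KD library was above every NC library, with ratios of the means of 2.42 and 2.37. Neither difference passed without the block (1.11, SE 0.32, limma adjusted p 1 at 8/16 cells, and 0.84, SE 0.26, limma adjusted p 0.115 in morulae). In morulae INHBB passed with the replicate block (adjusted p 0.0450) but not with the block at that stage only (0.0553). INHBB fell between the KD stages (-0.94, SE 0.29, limma adjusted p 0.0461). That call was narrow. It was lost with a pseudocount of 0.1 (adjusted p 0.0575) or 0.5 (0.0515), with no filter (0.0961), with quantile normalization (0.108) and with rescaling to an equal sum (0.133). It was also lost without KD 8/16-cell replicate 1 (0.147) or 2 (0.180), without KD morula replicate 1 (0.124) or 2 (0.128), and without any one of the NC morula replicates 1 to 3 (0.0565 to 0.0603). Between the NC stages the difference was -0.68 (limma adjusted p 0.102).

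INHBA was at 1.79 and 0.947 FPKM in NC, against 1.47 and 2.58 FPKM in KD 8/16-cell libraries, which overlapped. In morulae INHBA was at 0.725, 1.91 and 1.48 FPKM in NC, against 2.37, 2.28 and 2.73 FPKM in KD libraries, which did not. The morula difference was 0.58 (SE 0.26, limma adjusted p 0.238), and the stage differences were -0.01 in NC and 0.22 in KD embryos (limma adjusted p 0.990 and 0.632). INHBB made up 65.8%, 47.1% and 54.3% of the summed INHBA and INHBB in NC morulae and 58.2%, 53.3% and 67.3% in KD morulae (exact two-sided permutation p 0.6, n = 3 per group). The proportion of the subunits thus overlapped between the treatments. ACVR1B, the type I activin receptor, had the smallest spread of the 10 genes over all libraries (SD 0.22 on the log2 scale) and was at 9.17 and 6.24 FPKM in NC, against 8.09 and 7.18 FPKM in KD 8/16-cell libraries. In morulae ACVR1B was at 7.07, 7.28 and 4.74 FPKM in NC, against 8.09, 7.67 and 6.91 FPKM in KD libraries. Its morula knockdown difference was 0.23 with a 95% interval of -0.22 to 0.68 (limma adjusted p 0.533).

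INHA and INHBB are also made by granulosa cells, which surround the oocyte as cumulus, so markers of those cells are given beside INHBB. INHA is itself in that marker list, so the list cannot be set against INHA. The summed level of 19 cumulus and granulosa markers was 105 to 113 FPKM in NC, against 168 to 184 FPKM in KD 8/16-cell libraries, and 82.7 to 91.5 FPKM in NC, against 71.3 to 141 FPKM in KD morulae. At 8/16 cells 8 markers had a higher and 9 a lower mean in KD embryos, and in morulae 13 had a higher and 5 a lower mean. Of the 19, 7 lay wholly above and 1 wholly below NC at 8/16 cells, and 3 and 1 in morulae. INHA is among the 7, at 0.705 and 1.14 FPKM in NC, against 3.62 and 4.09 FPKM in KD 8/16-cell libraries. Over all genes 33.2% at 8/16 cells and 23.8% in morulae did not overlap, both directions together. In limma none passed among the 13 tested at either stage. An unadjusted limma p under 0.05 was reached by 3 of the 13 at 8/16 cells, against 4.37% of all genes. In morulae 5 of the 13 reached it, against 21.2% of all genes. FSHR, the receptor for follicle-stimulating hormone, was listed at 0 in every library. VIM, an intermediate filament gene of mesenchymal cells, was at 16.4 and 20.3 FPKM in NC, against 31.9 and 41.5 FPKM in KD 8/16-cell libraries. In morulae VIM was at 0.346, 5.40 and 5.42 FPKM in NC, against 3.44, 10.97 and 43.3 FPKM in KD libraries. The markers did not share 1 direction: CYP19A1, which encodes aromatase, was at 1.41, 1.44 and 0.689 FPKM in NC, against 0.260, 0.143 and 0.0202 FPKM in KD morulae. CYP11A1, which starts steroid synthesis, was at 0.149, 3.13 and 3.77 FPKM in NC, against 2.25, 7.90 and 15.4 FPKM in KD morulae. VIM and CYP11A1 were highest in KD morula replicate 3, the library with the most INHBB, INHBA, FGFR1 and ID2 of its stage, whereas CYP19A1 was lowest there. The part of such cells in those results was not tested. For comparison, the 10 early embryo and oocyte markers, POU5F1 and SOX2 among them, summed to 538 to 707 FPKM in NC, against 478 to 527 FPKM in KD 8/16-cell libraries. Their sum was 871 to 1236 FPKM in NC, against 640 to 1037 FPKM in KD morulae. Sperm and testis markers summed to at most 12.9 FPKM in any library. Of the blood and immune markers, HBA held 94.8 to 239 FPKM while HBB was at 0 in all libraries but 1.

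Across the set, no gene passed for the knockdown at either stage in the fit without a block. At 8/16 cells 0 of 9 tested genes passed, where 0.017% of all genes passed. An unadjusted limma p under 0.05 was reached by 1 of the 9, INHBB, against 4.37% of all genes. Of the 9, 3 had treatments that did not overlap, FGFR2 and INHBB higher and FGFR4 lower in KD, against 33.2% of all genes. In morulae 0 of 10 passed, where 0.697% of all genes passed. An unadjusted limma p under 0.05 was reached by 5 of the 10, FGF4, FGFR4, BMPR1A, INHBB and ID2, against 21.2% of all genes. For FGF4 that p rests on a spread shared with 8/16-cell libraries all listed at 0, which makes it too small. With the morula libraries fitted alone 5 of the 10 reached an unadjusted limma p under 0.05, against 18.1% of all genes. Of the 10, 5 did not overlap, with FGFR1, INHBA and INHBB higher and FGFR4 and BMPR1A lower, against 23.8% of all genes. The median morula difference of the set was 0.27, against -0.08 over all genes tested. When libraries were rescaled to an equal sum the median over all genes became 0.03, which left the directions of these 5 genes as they were. At the morula stage the libraries with the same number deviated together, and with the replicate number as a block 3 of the 10 passed, FGFR4 lower and INHBB and ID2 higher, where 11.9% of all genes passed. With a block at the morula stage only, ID2 was the 1 that passed, where 10.4% of all genes passed. Over all alternatives the morula adjusted p ran from 0.0409 to 0.613 for FGFR4, from 0.0450 to 0.597 for INHBB and from 0.0110 to 0.938 for ID2. With the RN18S1 level as a covariate their differences were -0.57, 0.47 and 0.10. None of 9 genes passed the test of a difference between the stages' knockdown effects, where 0.017% of all genes passed. In that test 1 of the 9, BMPR1A, had an unadjusted limma p under 0.05, against 9.39% of all genes.

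**Figure D3:**
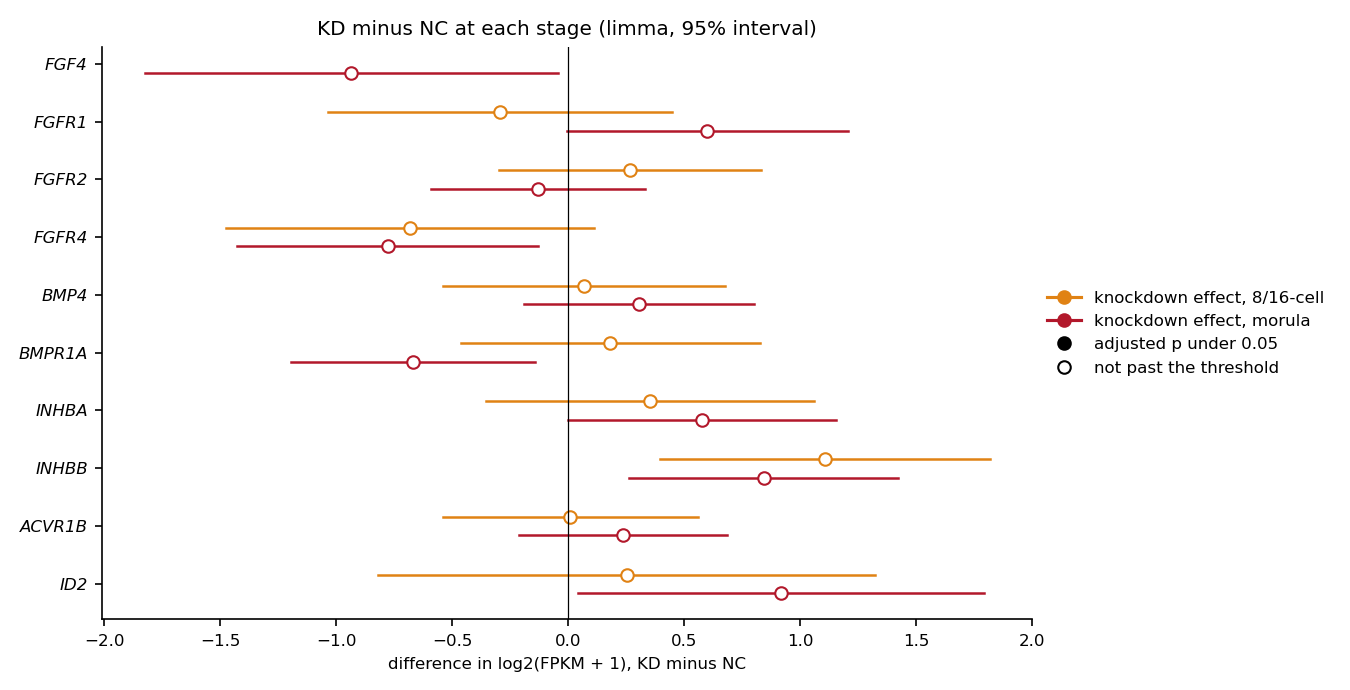
Difference of KD minus NC in log2(FPKM + 1) for each gene at the 8/16-cell and morula stages, with 95% intervals from limma; FGF4 has no value at 8/16 cells, where it is listed at 0. INHBB lies above 0 at both stages (1.11 and 0.84) and FGFR4 below it (-0.68 and -0.78), and none passes after adjustment over all genes.

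Among morulae, 2 libraries held most of the extremes of the 10 genes. Extremes were not counted over all genes, so these counts are not read as a trait of the set. KD morula replicate 3 had the highest value of the 6 morula libraries for FGFR1, INHBA, INHBB and ID2 and the lowest for FGF4, FGFR2, FGFR4 and BMPR1A, which makes 8 of the 10 genes. NC morula replicate 1 was at an extreme for 7 of the 10. Without KD morula replicate 3 the morula differences of FGFR4, INHBB and ID2 were -0.43, 0.59 and 0.68, and without NC morula replicate 1 they were -0.64, 0.78 and 0.51. All kept their direction and none passed.

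Between the stages more of the set passed than between the treatments. In NC embryos FGF4, FGFR2, FGFR4 and BMPR1A rose and BMP4 and ID2 fell, 6 of 10, where 30.8% of all genes passed. The remaining 4, FGFR1, INHBA, INHBB and ACVR1B, did not pass. FGF4 is listed at 0 in every 8/16-cell library and reached the filter on low values through its morula libraries alone. Its place in the counts of either treatment therefore carries no weight. In KD embryos FGF4 and FGFR4 rose and INHBB fell, 3 of 10, where 20.0% of all genes passed; with the replicate block 5 of 10 passed, BMP4 and ID2 falling as well, where 32.1% of all genes passed. Without NC morula replicate 1 only FGF4 and FGFR4 passed between the NC stages, where 21.5% of all genes passed. A fit without an 8/16-cell library leaves 1 library in that group. Between the stages of that treatment, fewer of the 10 genes and fewer of all genes then passed. Leaving out any 1 library, the FGFR4 stage difference ran from 1.73 to 1.95 in NC and from 1.46 to 2.12 in KD embryos. The NC stage comparison and the morula knockdown comparison share the NC morula libraries. Symbols that the table repeats on several lines are repeated differently in the columns of each stage. Whether the columns of the stages were made apart is not known, and stage differences would include any effect of that.

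**Figure D4:**
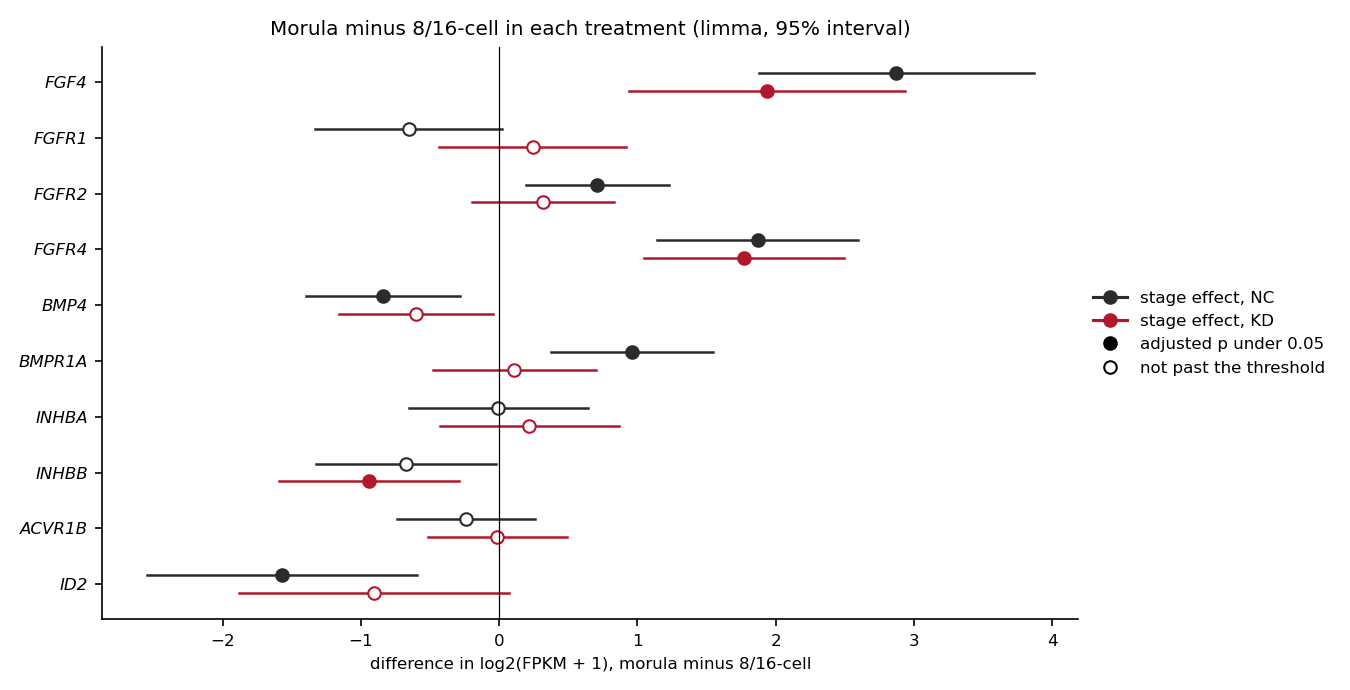
Difference of morula minus 8/16-cell embryos in log2(FPKM + 1) for each gene in NC and in KD embryos, with 95% intervals from limma. FGF4 (2.87 and 1.94) and FGFR4 (1.87 and 1.77) lie above 0 in both treatments, and BMPR1A is at 0.96 in NC and 0.11 in KD embryos. FGF4 is listed at 0 in every 8/16-cell library.

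Another 94 genes of these pathways were grouped by role, and 71 reached the filter on low values. None passed for the knockdown at 8/16 cells (4 at an unadjusted limma p under 0.05) or in morulae (15). The median morula difference of the 71 was -0.02, against -0.08 over all genes tested. With the replicate block 3 were higher and 7 lower in KD morulae, and the same numbers passed with a block at the morula stage only. These 10 make up 14.1% of the 71, near the 11.9% of all genes that passed with the block (10.4% with the block at the morula stage only). Likewise the 15 in morulae at an unadjusted limma p under 0.05 are 21.1% of the 71, against 21.2% of all genes. The 4 at 8/16 cells are 5.63% of the 71, against 4.37% of all genes. Without KD morula replicate 1 and with no block, 3 were higher and 3 lower, 8.45% of the 71 against 4.48% of all genes. The 3 that were higher with the block were SPRY4, FSTL3 and BAMBI. SPRY4, a feedback inhibitor of receptor tyrosine kinases, was at 2.69, 7.28 and 3.98 FPKM in NC, against 8.45, 13.0 and 9.87 FPKM in KD morulae (1.08, limma adjusted p 0.0747, blocked 0.00969). FSTL3, which binds and neutralises activin, was at 2.91, 6.63 and 8.74 FPKM in NC, against 10.3, 13.7 and 36.0 FPKM in KD morulae (1.47, limma adjusted p 0.0954, blocked 0.00489). BAMBI, a pseudoreceptor that dampens TGF-beta family signals, differed by 1.04 (limma adjusted p 0.123, blocked 0.00659). Of these 3 inhibitors, SPRY4 and FSTL3 had KD libraries all above the NC ones.

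Among the 7 genes that were lower in KD morulae with the block were FGFR3, another FGF receptor, and relay genes of its pathway. FGFR3 was at 27.3, 17.6 and 18.2 FPKM in NC, against 16.1, 10.3 and 7.21 FPKM in KD morulae (-0.89, limma adjusted p 0.102, blocked 0.0131). The relay genes were PTPN11, a phosphatase needed for RAS activation (-0.65, blocked limma adjusted p 0.0399), GAB1, a docking protein (-0.84, 0.0399), and NRAS, a RAS protein (-0.90, 0.0184). SPRED2, an inhibitor of the RAS pathway, was lower too (-0.77, blocked limma adjusted p 0.0464), as was SMAD3, which carries the activin signal (-0.78, 0.0259). MSX2, a homeobox gene activated by BMP, had the largest difference of the 7, from 40.0, 15.8 and 22.1 FPKM in NC to 14.9, 4.02 and 2.86 FPKM in KD morulae (-1.90, limma adjusted p 0.0724, blocked 0.00377). ID1 and ID3, also BMP targets, had differences of the opposite sign that did not pass (0.61 and 1.08, blocked limma adjusted p 0.0624 and 0.0783), except that without KD morula replicate 1 both passed (0.87 and 1.53, limma adjusted p 0.0460 and 0.0442). The feedback and target genes of the FGF pathway were likewise mixed, with SPRY4 higher, SPRED2 lower, and ETV4 and ETV5 at 0.50 and 0.40 without passing (limma adjusted p 0.316 and 0.374).

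**Figure D5:**
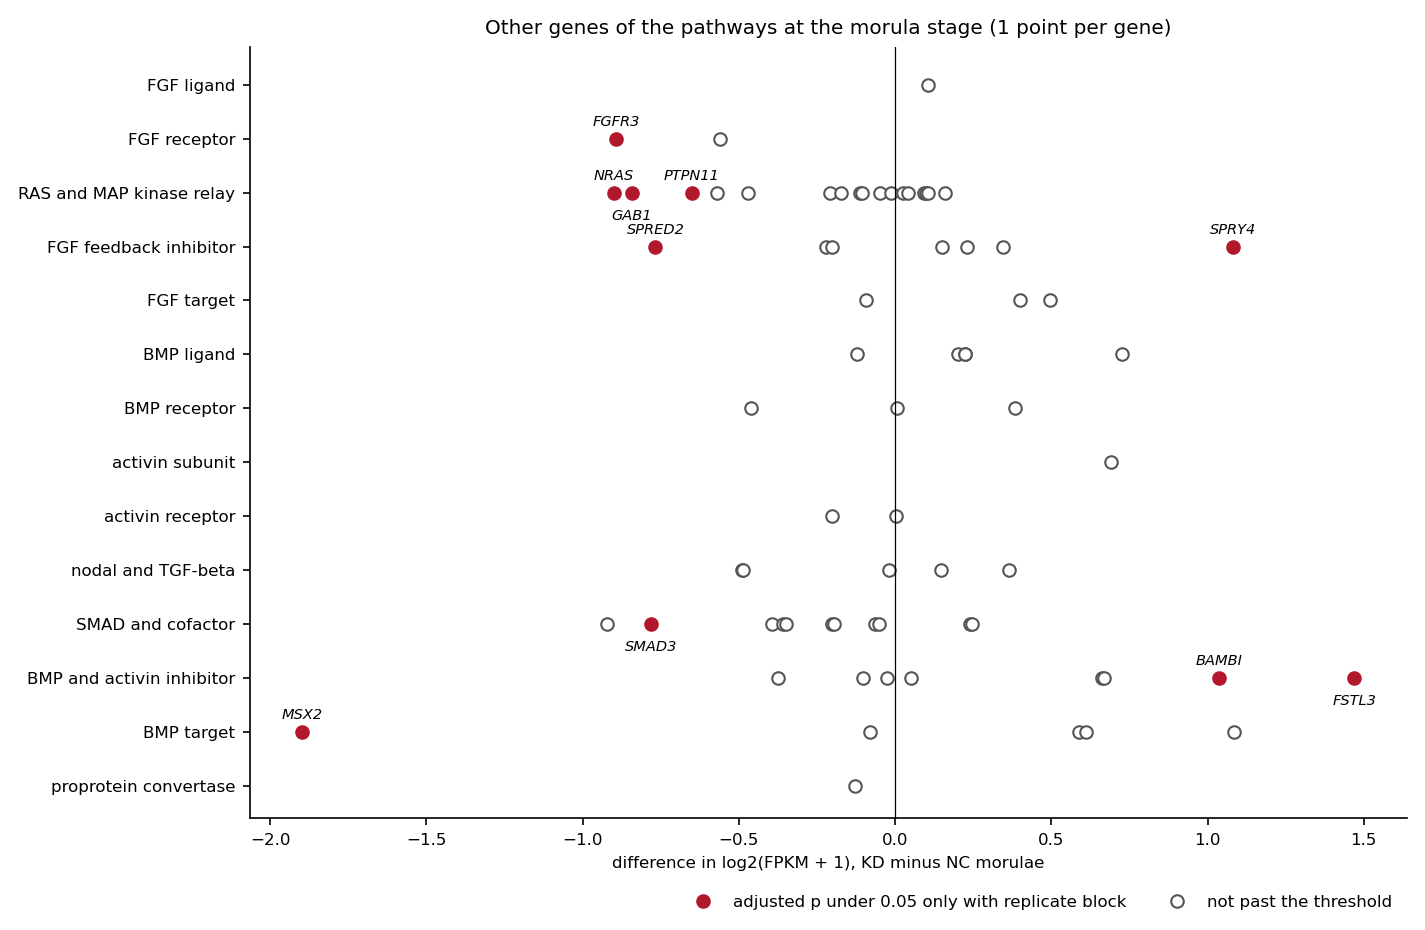
Difference of KD minus NC morulae in log2(FPKM + 1) for the 71 other tested genes of the pathways, grouped by role. Each point is a gene. The points lie on both sides of 0 in most roles, and MSX2 (-1.90) and FSTL3 (1.47) lie farthest from it among the other genes named in the text.

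Between the NC stages 11 of the 71 other genes rose and 17 fell, which is 39.4% of them against 30.8% of all genes. Between the KD stages 5 rose and 12 fell, 23.9% against 20.0%. Quantile normalization gave 8 and 8 in KD embryos (22.5% against 18.3%), and rescaling gave 6 and 6 (16.9% against 13.1%). Leaving out NC 8/16-cell replicate 1 gave 5 and 8 in NC embryos (18.3% against 12.0% of all genes) and replicate 2 gave 4 and 10 (19.7% against 14.1%). In KD embryos, leaving out KD 8/16-cell replicate 1 gave 0 and 6 (8.45% against 6.71%) and replicate 2 gave 2 and 4 (8.45% against 5.89%). KD morula replicate 1 left 1 and 6 (9.86% against 9.11%) and KD morula replicate 2 left 2 and 8 (14.1% against 12.8%). The largest falls were in the oocyte ligand genes BMP15 (from a mean of 57.5 to 0.873 FPKM in NC, -4.96, limma adjusted p 0.000134) and GDF9 (12.6 to 0.609 FPKM, -3.05, 0.000293), and in the BMP target genes ID3 (59.4 to 1.77 FPKM, -4.40, 0.000265) and MSX1 (75.8 to 7.41 FPKM, -3.11, 0.000467). ID3 and BMP15 also fell in KD embryos (-3.13, limma adjusted p 0.00219, and -4.06, 0.000588). The inhibitor genes BAMBI (-2.21, limma adjusted p 0.00240) and CHRD, a secreted BMP antagonist (-1.40, 0.00387), fell in NC embryos. FOXH1, the partner of SMAD2 and SMAD3 in the nodal response, rose in NC embryos from 0.834 and 0 FPKM to 13.0, 4.96 and 9.47 FPKM (2.82, limma adjusted p 0.00296). SMAD1 rose as well (1.13, limma adjusted p 0.00381), and so did SPRED2 (1.48, 0.00345). These NC calls held without any one library. Between the KD stages GDF9, MSX1, BAMBI and CHRD passed as falling and SMAD1 as rising too, while FOXH1 and SPRED2 did not pass. The KD calls of BAMBI and MSX1 were lost without KD morula replicate 1 (limma adjusted p 0.0675 and 0.0516), among other settings. FGFR3 rose with FGFR4, by 1.25 in NC (limma adjusted p 0.0103) and 1.16 in KD embryos (0.0219). The NC call of FGFR3 was lost without NC 8/16-cell replicate 1 or 2 (0.0797 and 0.0562), and its KD call without KD 8/16-cell replicate 1 or 2 or KD morula replicate 1 or 2 (0.0514 to 0.114).

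The genes most like FGF4, FGFR4 and ID2, the 3 with the largest spread over the 10 libraries, were sought among 7706 genes that averaged 5 FPKM or more. Likeness was the root mean square difference between centred log2(FPKM + 1) profiles. Nearest to FGFR4 were LOC512541 (0.13), MPZL2, which encodes an adhesion protein (0.20), and CNTNAP1 (0.21). LOC512541 had means of 2.64 and 1.68 FPKM in NC, against KD 8/16-cell embryos and 13.2 and 7.94 FPKM in NC, against KD morulae, the same order of groups as FGFR4. FAM234B, CNTNAP1 and ACSL3 were nearest to FGF4 at 0.32, 0.32 and 0.36. Among the nearest to ID2 were DAZAP2 (0.27) and ASF1B, a histone chaperone gene (0.28). These values describe the 10 libraries, which share their depth and composition across genes.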

How the data were processed

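Poly(A) RNA of 10 samples of bovine embryos was sequenced. The submitters' processing notes name Cufflinks, featureCounts, HISAT2 and Trimmomatic and the builds ARS-UCD1.2 and bosTau9, with no roles; versions are not given in the sources used here. The authors deposited 1 table of FPKM values with 39911 lines. The 81 symbols that stand on several lines were left out (11211 lines), which left 28700 genes; 24308 symbols matched RefSeq's ARS-UCD2.0 list, used for names only. Low values shared no common step in most libraries, so depth was not recovered.

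The limma package 3.58.1 (R 4.3.3) fitted 4 group means to log2(FPKM + 1) of all 10 libraries with a variance trend (6 residual and 4.63 prior degrees of freedom), for 11761 genes and 5 comparisons. It was also run on simulated libraries whose spread was independent between libraries. The deviations shared by same-numbered morula libraries were not simulated. FGF4, at 0 in every 8/16-cell library, was left out of the 8/16-cell and interaction tests. The labels do not tie replicate numbers to collections. Deviations of same-numbered NC and KD libraries from their group means correlated in all 3 morula pairs (r = 0.37, 0.325 and 0.312). At 8/16 cells r was 0.0558. The main fit did not use the replicate numbers, and calls are from that fit unless another setting is named. Replicate numbers entered only the alternative fits with a block, whose calls hold only if the numbers do pair libraries. Shares were compared by exact permutation tests.

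All 10 genes are named. Other pathway genes were named where called for the knockdown, or else up to 3 per role by smallest p in morulae and up to 2 per role between stages; not all of these are described, and genes called with the block were added after their values were seen. The 3 most alike genes were sought for each of the 3 genes with the largest spread; 1 of them is not reported here. The genes and lists were chosen with earlier results of these data known. The 4 marker lists cover early embryo and oocyte, blood and immune cells, cumulus and granulosa cells, and sperm and testis. No sequences were used. Alternatives changed the pseudocount, filter, scaling, fit, block and libraries.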

Additional observations from a re-analysis of the deposited data

How the results depend on the processing

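With the replicate number as a block, 3 of the 10 genes passed for the knockdown in morulae (0 without it) and 5 between the KD stages (3 without it), and counts over all genes went from 82 to 1398 in the morula knockdown comparison, from 2 to 32 in the interaction and from 2355 to 3774 between the KD stages; the block changed no other call of the 10 genes. A block at the morula stage only, chosen after seeing the data, gave 1 of the 10 genes and 1224 of all genes in morulae, 21 in the interaction and 3571 between the KD stages. The other settings gave, over all genes, 11 (no filter), 1 (stage fitted alone) and 4 (RN18S1 as a covariate, chosen after seeing the data) against 2 for the 8/16-cell knockdown. For the morula knockdown they gave 6 (no filter), 139 (mean of at least 5 FPKM), 10 (rescaled to an equal sum), 0 (stage fitted alone, 2131 at an unadjusted limma p under 0.05) and 0 (RN18S1, 1243 at an unadjusted limma p under 0.05) against 82. RN18S1 gave 4 against 2 for the interaction, and rescaling gave 1537 against 2355 between the KD stages. Of the 10 genes, 3 passed between the NC stages with no filter, where 16.1% of all genes passed. At a mean of at least 5 FPKM, where only 4 are tested, 3 passed between the NC stages and 1 between the KD stages. At that mean 33.6% and 23.9% of all genes passed. Without these changes 6 and 3 of the 10 passed, where 30.8% and 20.0% of all genes passed. Leaving out each library gave 2 to 9 genes for the 8/16-cell knockdown, 0 to 527 for morulae, 2 to 6 for the interaction, 1406 to 3657 between the NC stages and 693 to 2698 between the KD stages. Of the 10 genes it gave 2 to 6 between the NC and 0 to 3 between the KD stages.

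Of 951 alternative values for the 10 genes, 867 kept their direction and side of the threshold, 38 lost a call, 8 gained one and 38 changed sign. The changes of sign were in differences that had not passed. Under rescaling BMP4 was at -0.031 and ACVR1B at -0.079 for the 8/16-cell knockdown, FGFR4 at 0.12 for the interaction, INHBA at 0.0088 between the NC stages and ACVR1B at 0.19 between the KD stages. Under quantile normalization FGFR4 was at 0.094 for the interaction, INHBA at 0.19 between the NC stages, and ACVR1B at -0.0073 for the 8/16-cell knockdown and 0.16 between the KD stages. With RN18S1 FGFR2 was at 0.040 in morulae, FGFR4 at 0.12 and ID2 at -0.20 for the interaction, and ACVR1B at -0.015 for the 8/16-cell knockdown and 0.26 between the KD stages. Leaving out each library, the 8/16-cell knockdown difference ran from -0.75 to 0.15 for FGFR1, from -0.30 to 0.43 for BMP4, from -0.24 to 0.25 for ACVR1B and from -0.047 to 0.55 for ID2, and the morula one from -0.22 to 0.0094 for FGFR2. The interaction ran from -0.41 to 0.25 for FGFR4, from -0.12 to 0.60 for BMP4, from -0.043 to 0.49 for INHBA, from -0.62 to 0.093 for INHBB and from -0.018 to 0.47 for ACVR1B. The NC stage difference ran from -0.27 to 0.25 for INHBA and from -0.49 to 0.0051 for ACVR1B, and the KD one from -0.21 to 0.69 for FGFR1, from -0.047 to 0.27 for BMPR1A, from -0.050 to 0.48 for INHBA and from -0.090 to 0.063 for ACVR1B. The cause was not tested. Rescaling moved the median of all genes between the KD stages from -0.18 to 0.0027. Groups of 2 or 3 libraries and the unknown depth limit every value near or under 1 FPKM.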
